A study of Mus musculus with 8 samples.

Results

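The mitochondrial genome of the mouse is a small circle of DNA that carries 37 genes, and all 37 were found among the 55487 gene identifiers of the count table. They were taken by their symbols, which begin with mt-, and comprise 13 protein-coding genes, 2 ribosomal RNA (rRNA) genes and 22 transfer RNA (tRNA) genes. Counts came from 3′ end sequencing of polyA RNA (QuantSeq) in 8 libraries. Of these, 4 were from parental E14-Tg2a mouse embryonic stem cells, labelled WT, and 4 from the derived line E14-Tg2a 4D, labelled Tbx1-/-. Cultures of either line were differentiated in vitro towards precardiac mesoderm in serum-free medium and collected on day 6, after maintenance in serum and LIF. The mutant libraries all come from 1 line, 4D, and the Tbx1 genotype and other properties of 4D cannot be told apart. The labels describe the replicates as biological without naming separate differentiations, and p-values measure the spread between these cultures.

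Both strands of the circle are transcribed from end to end as long precursor RNAs, and the tRNAs that lie between most of the other genes are cut out to release the mRNAs and rRNAs. Most mitochondrial mRNAs and both rRNAs then receive a short polyA tail, which lets an oligo-dT method detect them, whereas mature tRNAs end in CCA. The 13 proteins are core subunits of respiratory complexes I, III and IV and of the ATP synthase, and all other subunits come from nuclear genes. Tissues with a high demand for oxidative energy, such as heart muscle, are rich in mitochondrial RNA.

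Total counts ranged from 3803561 to 6293907 per library, and 14850 to 19134 genes had a count. Tbx1, the gene labelled as mutated, had 22 to 65 counts in the parental and 0 to 3 in the mutant libraries. Mutant library 4 stood apart, with the fewest genes detected and 17.7% of its counts in the nuclear ribosomal RNA gene CT010467.1, against 8.90% to 12.2% in the other mutant libraries and 11.1% ± 1.27 (SD, n = 4) in the parental line. Of 13 markers of precardiac mesoderm and cardiac progenitors, 13 passed the low-count filter and 10 had counts in every library, the exceptions being Tbx5, Mesp1 and Nkx2-5. Pluripotency markers were low, at 38.0 to 59.6 CPM for 8 genes together. By edgeR, which called 1.42% of all tested genes, Gata6 of the 13 precardiac markers was higher in the mutant line, and Foxa2 and Krt18 of 7 tested endoderm markers were lower. DESeq2 and limma-voom, which called 405 and 252 of all 13280 tested genes, each called 4 of the 13, Gata6, Hand1, Hand2 and Isl1. Of 10 endothelial and erythroid markers 3 were called higher by edgeR, all embryonic globins (Hba-x, Hbb-bh1 and Hbb-y), and this list summed to 303 to 486 CPM in the parental and 811 to 1299 CPM in the mutant line. The part of these cell types in the mitochondrial results was not tested. CPM is the count scaled to the size of its library, after adjustment by the trimmed mean of M values (TMM).

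The sequences of 4 tRNA genes are given here because the tRNA results turn on them: mt-Tc, which differed between the lines, and mt-Tq, mt-Te and mt-Tp, which held the most counts. All 4 lie on the minus strand of the circle. They are the sense strand of the gene, 5′ to 3′, from the GENCODE M21 transcripts of GRCm38, without the CCA that is added later. The capitals mark the anticodon, which was located as a centred triplet of a 7-base loop flanked by a fully paired 5-base stem.
mt-Tc: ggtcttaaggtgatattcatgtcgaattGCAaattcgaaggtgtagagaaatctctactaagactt
mt-Tq: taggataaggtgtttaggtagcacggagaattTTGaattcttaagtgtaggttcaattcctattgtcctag
mt-Te: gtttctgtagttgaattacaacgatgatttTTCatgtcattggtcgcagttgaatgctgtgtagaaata
mt-Tp: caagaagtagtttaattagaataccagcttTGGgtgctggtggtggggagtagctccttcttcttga
The longest run of A was 3 bases in mt-Tc and mt-Te and 2 bases in mt-Tq and mt-Tp. The longest such runs among the 22 tRNA genes were 8 bases in mt-Tr and 6 bases in mt-Th, and both of these genes were listed at 0. A listed 0 need not mean absent RNA, as set out below, and the part of A runs in the counts was not tested.

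Mitochondrial genes took 6.62% to 8.16% of all counts in the parental and 6.73% to 8.35% in the mutant libraries. The rRNA genes held most of this, at 4.58% ± 0.701 in the parental and 4.53% ± 0.703 in the mutant libraries (SD, n = 4). The mRNA genes held 2.47% ± 0.128 and 2.80% ± 0.237, and the tRNA genes 0.100% ± 0.0314 and 0.0820% ± 0.0120. Of the 13 mRNA genes, 5 were listed at 0 in all libraries and mt-Nd3 had 8 counts. Such a 0 need not mean that the RNA was absent, as set out below. The mRNA share, and ratios to it, thus rest on the other 7 genes. The ranges of the lines overlapped for each of the 3 classes.

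For the mRNA genes the share was 2.36%, 2.43%, 2.66% and 2.45% in parental libraries 1 to 4, and 2.86%, 2.60%, 2.63% and 3.10% in the mutant libraries 1 to 4. The highest value was in mutant library 4, whose 95% exact Clopper-Pearson interval was 3.09% to 3.12%. Intervals of this kind cover counting error only and were narrower than the spread between libraries. The mean was higher in the mutant line by 0.324 percentage points, and by 0.221 without mutant library 4. The rRNA share was 4.11%, 4.30%, 4.28% and 5.63% in parental libraries 1 to 4 and 5.42%, 4.77%, 4.03% and 3.91% in the mutant libraries 1 to 4. In parental library 4 and mutant library 1 it was highest, so the high values occurred in either line. Counts in rRNA genes were 1.61 to 2.29 times those in mRNA genes in parental libraries and 1.26 to 1.89 times in the mutant libraries. The lowest ratio of the 8 was in mutant library 4.

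Counts were spread unevenly along the circle. Of the 37 genes, 13 were listed at 0 in all 8 libraries, among them 5 protein-coding genes, and mt-Nd3 had 8 counts in all. A run of 11 neighbouring genes from mt-Ts1 to mt-Nd4l, at positions 6870 to 10173 of chromosome M (GRCm38), held only these 8 counts. It contains 6 protein-coding genes: mt-Co2 and mt-Co3, subunits of cytochrome c oxidase, mt-Atp6 and mt-Atp8 of the ATP synthase, and mt-Nd3 and mt-Nd4l of complex I. The other 5 genes of the run are for tRNAs. Genes on either side of the run were well counted, with a total of 40737 counts for mt-Co1 and 316807 for mt-Nd4. The 3 genes listed at 0 outside the run were mt-Tw, mt-Ty and mt-Th.

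**Figure D1:**
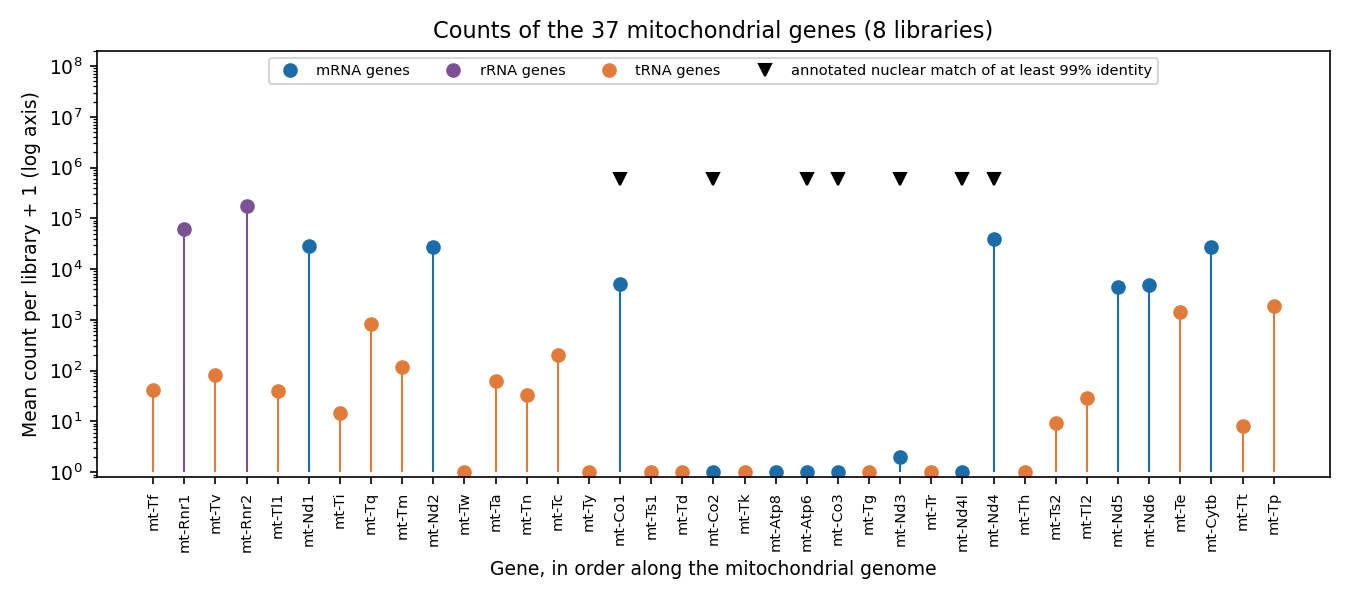
Mean count per library plus 1, on a log axis, for each of the 37 mitochondrial genes in their order along the circle, over 8 libraries. Colours give the gene class, and triangles mark genes with an annotated nuclear match of at least 99% identity. The 11 neighbours from mt-Ts1 to mt-Nd4l lie at or near the bottom of the axis.

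Of the 6 protein-coding genes of the run, 5 have near-identical annotated copies in nuclear DNA. A comparison of the 37 mitochondrial transcripts with all other GENCODE M21 transcripts found matches of at least 95% identity over at least 100 bases for 9 genes, to 11 nuclear pseudogenes. On the minus strand of chromosome 1 (GRCm38), Gm28661 at 24614885 to 24615565 matched mt-Co2 at 100% over 681 bases. Its neighbours Gm10925 and Gm28437 matched mt-Atp6 and mt-Co3 at 100% over 678 and 783 bases. Gm10222 matched mt-Nd4l at 100% over 294 bases. Where 2 such copies are identical, a read cannot be placed in one of them by its sequence alone. A 0 for a gene with such a copy therefore does not show that its RNA was missing from the cells, and no change is given for these genes. The search covered annotated transcripts only, and no annotated match was found for mt-Atp8, listed at 0. The tRNA genes are shorter than the 100 bases required, so they could not be matched. The chromosome 1 copies lie in the same order as the genes, from Gm29216 (24615706 to 24616197, mt-Co1) to Gm28439 (24611535 to 24612410, mt-Nd4). Sequence between them was not searched. Of genes that were well counted, mt-Nd2 and mt-Nd5 matched at 96.7% and 95.2%. For mt-Nd4 the match was 100% over its first 876 of 1378 bases. Matches of mt-Co1 were 97.6% over 1545 bases and 99.8% over its last 483. How the counting treated reads that fit several places is not given in the sources used here, so its part in the zeros was not tested.

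The pair of mt-Nd3 and its copy Gm28438 on chromosome 1 (24612775 to 24613119) differed at a single position over 345 shared bases, T3C, counted from the first base of the gene. The first 32 bases of each are shown because they hold this difference, marked by the capital.
mt-Nd3: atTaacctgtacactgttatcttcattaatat
Gm28438: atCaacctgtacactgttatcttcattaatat
Counts were 0, 0, 0 and 2 for mt-Nd3 in parental libraries 1 to 4 and 0, 6, 0 and 0 in the mutant libraries 1 to 4. Gm28438 had 103, 199, 363 and 89 counts in the parental and 357, 178, 126 and 169 in the mutant libraries. Nearly all counts of this pair thus stood under the name of the nuclear copy, with overlapping lines and a log2 fold change of 0.35 ± 0.33 (SE; edgeR adjusted p = 0.742). The other 10 nuclear matches had 5 to 216 counts over the 8 libraries together. Among them, Gm28439 matched the first 876 bases of mt-Nd4 at 100%, and Gm29216 matched the last 483 bases of mt-Co1 with 1 mismatch. The match of mt-Co1 covers its 3′ end, where an assay of transcript 3′ ends counts, and its level is for this reason uncertain. That of mt-Nd4 leaves out the 3′ end, and its part in the level of mt-Nd4 was not tested.

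The lines were compared with a quasi-likelihood test in edgeR over the 13280 genes that passed its low-count filter, with Benjamini-Hochberg adjustment over all of them. Of the 37 mitochondrial genes 21 were tested: 7 protein-coding, 2 rRNA and 12 tRNA genes. At an adjusted p under 0.05, 1 of the 21 was called, mt-Tc, which was lower in the mutant line, and 0 were called higher. Over all tested genes 1.42% were called, 0.670% lower and 0.745% higher, so that 52.7% of the calls were higher. With libraries scaled by size alone, 63.7% of the calls were higher. The median log2 fold change was 0.13 for the 7 mRNA genes, -0.07 for the 2 rRNA genes and -0.33 for the 12 tRNA genes, beside 0.00 over all tested genes.

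**Figure D2:**
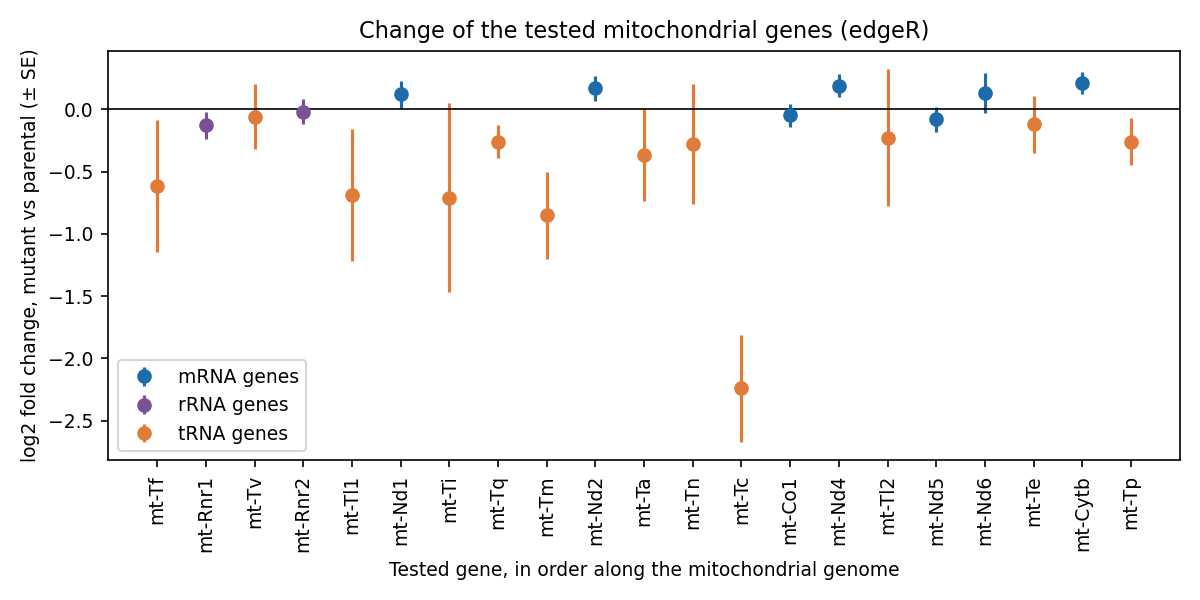
Log2 fold change of the mutant against the parental line, with its standard error, for the 21 tested mitochondrial genes in genome order, from edgeR over 8 libraries. Only mt-Tc, at -2.24, had an adjusted p under 0.05.

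The rRNA genes encode the small (mt-Rnr1) and large (mt-Rnr2) subunit RNAs of the mitochondrial ribosome, and mt-Rnr2 had the second most counts of all genes in the table. Levels of mt-Rnr2 were 30590, 31780, 32127 and 43026 CPM in the parental and 39810, 35260, 29488 and 31154 CPM in the mutant libraries 1 to 4. Levels of mt-Rnr1 were 10774, 11144, 10864 and 15850 CPM in the parental and 12749, 11338, 10738 and 9746 CPM in the mutant libraries. Parental library 4 was the highest for both genes, and the lines overlapped. The log2 fold change was -0.02 ± 0.10 (SE) for mt-Rnr2 and -0.13 ± 0.11 for mt-Rnr1. Without parental library 4 the value for mt-Rnr1 was 0.03. The sign of mt-Rnr2 turned when libraries were scaled by size alone and when parental library 4, mutant library 3 or mutant library 4 was left out. Neither gene passed the threshold (edgeR adjusted p = 0.972 and 0.717). The ratio of mt-Rnr2 to mt-Rnr1 counts was 2.84 ± 0.0994 in the parental and 3.04 ± 0.202 in the mutant libraries (SD, n = 4).

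Of the 7 complex I genes on the circle, 5 were tested. The products of mt-Nd1, mt-Nd2, mt-Nd4 and mt-Nd5 form much of the membrane arm of the enzyme that takes electrons from NADH. Levels of mt-Nd4 were 6921, 6992, 7701 and 6954 CPM in the parental and 8154, 7050, 7490 and 9999 CPM in the mutant libraries 1 to 4. The highest value was that of mutant library 4, and mutant libraries 2 and 3 lay inside the parental range. The fitted log2 difference was 0.19 ± 0.09 (SE), and the unadjusted p of 0.0424 became 0.397 after adjustment in edgeR. Levels of mt-Nd1 were 5019, 5232, 6122 and 5111 CPM in the parental and 5508, 5141, 5101 and 7675 CPM in the mutant libraries, again highest in mutant library 4. Levels of mt-Nd2 were 4029, 4781, 4846 and 6088 CPM in the parental and 5402, 5642, 6094 and 5031 CPM in the mutant libraries. For this gene mutant library 4 was the lowest of its line. The log2 fold changes were 0.12 ± 0.11 for mt-Nd1 and 0.17 ± 0.10 for mt-Nd2, and neither passed the threshold. Without mutant library 4 the value for mt-Nd1 was -0.03, and scaled to mitochondrial mRNA counts it was -0.04.

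Expression of mt-Nd5 was 841, 814, 817 and 1076 CPM in the parental and 877, 853, 781 and 842 CPM in the mutant libraries 1 to 4. Of the protein-coding genes, mt-Nd6 alone is read from the other strand, and its product is also a complex I subunit. Its levels were 1166, 777, 909 and 783 CPM in the parental and 1011, 958, 676 and 1330 CPM in the mutant libraries, so that each line spanned most of the range of the other. The log2 fold changes were -0.08 ± 0.10 for mt-Nd5 and 0.13 ± 0.16 for mt-Nd6 (edgeR adjusted p = 0.813 and 0.815). Without parental library 4 mt-Nd5 stood at 0.02, and without mutant library 4 mt-Nd6 stood at -0.04. Scaled to mitochondrial mRNA counts mt-Nd6 stood at -0.05. The annotated genes mt-Nd5 and mt-Nd6 overlap on opposite strands at positions 13552 to 13565 only. Within this short overlap their separation rests on the counting by strand that the name of the deposited table states.

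The remaining tested mRNAs were mt-Cytb, the cytochrome b of complex III, and mt-Co1, the catalytic subunit of cytochrome c oxidase. Levels of mt-Cytb were 4669, 4748, 5329 and 4578 CPM in the parental and 5825, 4740, 5175 and 6643 CPM in the mutant libraries 1 to 4. Mutant libraries 1 and 4 exceeded all parental values, and the other 2 did not. Its log2 fold change of 0.21 ± 0.09 (SE) had an unadjusted p of 0.0319 and an edgeR adjusted p of 0.356. Levels of mt-Co1 were 1044, 897, 955 and 1071 CPM in the parental and 1008, 967, 921 and 940 CPM in the mutant libraries. Its log2 fold change was -0.05 ± 0.09. The SD was 3.96% of the mean in mutant and 8.10% in parental libraries. Of the 7 tested mRNA genes 0 were called by edgeR, DESeq2 or limma-voom, and 2 had an unadjusted p under 0.05 in edgeR, where the share over all tested genes was 11.9%. Of the 7, 5 had a positive log2 fold change, but without mutant library 4 the number was 3 and their median was -0.03.

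**Figure D3:**
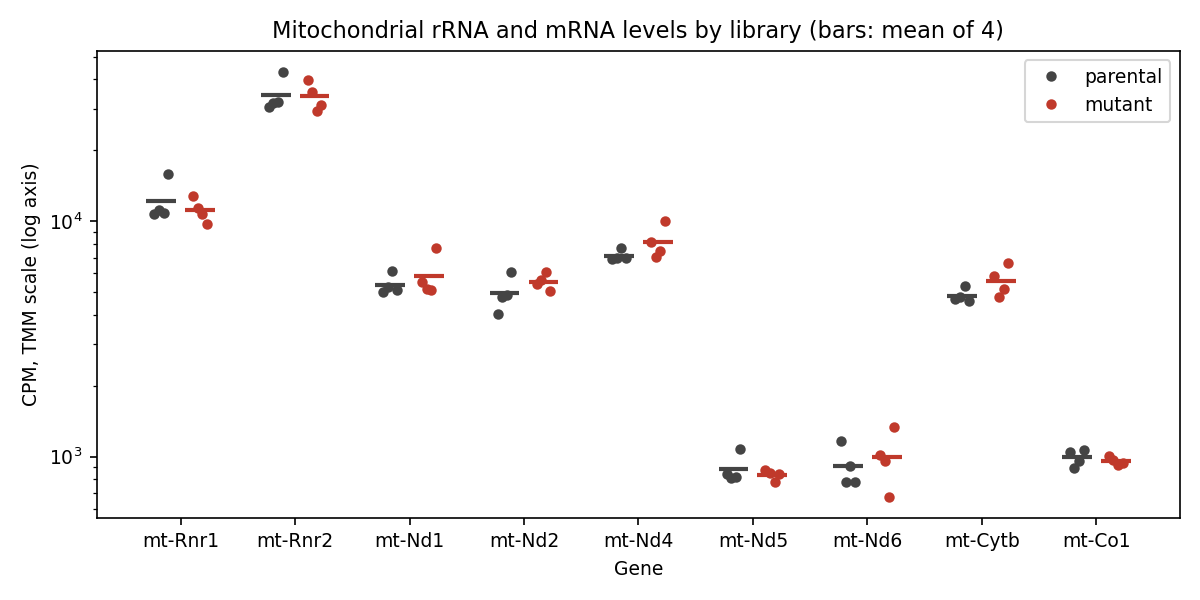
CPM on the TMM scale, on a log axis, of the 2 rRNA genes and the 7 tested mRNA genes. Each point is a library, with 4 per line, and bars are means of a line. The lines overlap for all 9 genes.

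The mRNAs differed in level. Per kilobase of gene, mean levels over the 8 libraries were 5866 CPM for mt-Nd1, 5557 for mt-Nd4, 5047 for mt-Nd2 and 4557 for mt-Cytb. They were 1833 CPM per kilobase for mt-Nd6, 631 for mt-Co1 and 473 for mt-Nd5. An assay of transcript 3′ ends does not count by length, and without this division mt-Nd6, mt-Co1 and mt-Nd5 were close together, at 951, 975 and 862 CPM. The level of mt-Co1, and so its rank here, is uncertain because of a near-identical nuclear match at its 3′ end. For mt-Nd4 the identical match leaves out the 3′ end, and its part in the level was not tested. As a share of the mRNA counts of a library, mt-Nd2 varied more than mt-Nd4. The share of mt-Nd4 was 27.1% to 29.2% in the parental and 27.8% to 30.8% in the mutant libraries. The share of mt-Nd2 was 23.7% in parental library 4 and 15.5% in mutant library 4, the highest and lowest of the 8.

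The tRNA genes on the minus strand held 92.2% ± 1.65 of tRNA gene counts in the parental and 93.6% ± 2.23 in the mutant libraries (SD, n = 4), although they number 8 of 22. Counts in a tRNA gene of a polyA library can come from precursors or from ends of neighbouring transcripts as well as from the tRNA, and these sources were not separated. Most counts were in the gene for proline tRNA, mt-Tp, next to the control region of the circle. Its levels were 589, 246, 326 and 432 CPM in the parental and 262, 375, 316 and 375 CPM in the mutant libraries 1 to 4. The gene for glutamate tRNA, mt-Te, directly precedes mt-Nd6 on its strand and had 480, 211, 277 and 184 CPM in the parental and 193, 328, 221 and 324 CPM in the mutant libraries. The gene for glutamine tRNA, mt-Tq, had 159, 157, 198 and 160 CPM in the parental and 114, 136, 165 and 145 CPM in the mutant libraries. For these 3 genes the lines overlapped. Parental library 1 was the highest of all for mt-Tp and mt-Te but not for mt-Tq. Their log2 fold changes were -0.26 ± 0.19, -0.12 ± 0.23 and -0.26 ± 0.13 (SE), and none passed the threshold in edgeR. Without parental library 1 the value was -0.02 for mt-Tp and 0.24 for mt-Te, and without mutant library 1 it was 0.01 for mt-Te.

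The gene for cysteine tRNA, mt-Tc (ENSMUSG00000064349.1), spans positions 5192 to 5257 of chromosome M on the minus strand, and its sequence is printed above with the anticodon GCA. It lies in a cluster of 5 tRNA genes between mt-Nd2 and mt-Co1. A gap of 32 bases separates it from mt-Tn, and this gap holds the origin from which the light strand of the DNA is copied. Counts were 662, 359, 126 and 202 in the parental and 100, 74, 77 and 16 in the mutant libraries 1 to 4. On the TMM scale these were 120, 64.4, 20.1 and 42.6 CPM in the parental and 16.8, 16.1, 14.0 and 4.40 CPM in the mutant libraries. All 4 mutant values lay below all 4 parental values, but mutant libraries 1 and 2 were close to parental library 3. The lines did not overlap, with the mutant lower, for 1 of the 21 tested mitochondrial genes and 4.04% of all tested genes. With the mutant higher, these were 0 and 3.49%, and in either direction 7.52% of all tested genes. The mean fell from 61.9 ± 43.0 to 12.8 ± 5.75 CPM (SD, n = 4), and the fitted log2 difference was -2.24 ± 0.43 (SE; edgeR adjusted p = 0.00835).

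The call for mt-Tc was lost under limma-voom (adjusted p = 0.0746) and robust empirical Bayes (0.141). It was kept whenever 1 of the 8 libraries was left out. Without parental library 1, which had the highest level, the log2 fold change was -1.70 with an edgeR adjusted p of 0.0414, and without mutant library 4, the lowest, it was -1.98 with an adjusted p of 0.0123. With libraries scaled to their own mitochondrial mRNA counts it was -2.40 (adjusted p = 0.0141), where the median of all tested genes moved to -0.14. Counts of mt-Tc per 1000 mitochondrial mRNA counts were 5.08, 2.66, 0.754 and 1.66 in the parental and 0.605, 0.636, 0.533 and 0.136 in the mutant libraries 1 to 4. As a share of minus-strand tRNA counts, mt-Tc made up 8.73%, 9.23%, 2.42% and 5.07% in the parental and 2.81%, 1.84%, 1.91% and 0.509% in the mutant libraries. On that scale the lines overlapped, since mutant library 1 exceeded parental library 3. Its neighbours in the cluster did not move to the same extent. The genes mt-Ta and mt-Tn, for alanine and asparagine tRNA, had log2 fold changes of -0.37 ± 0.37 and -0.28 ± 0.48, and mt-Tw and mt-Ty were listed at 0. A test of the difference between mt-Tc and its neighbours was not made.

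**Figure D4:**
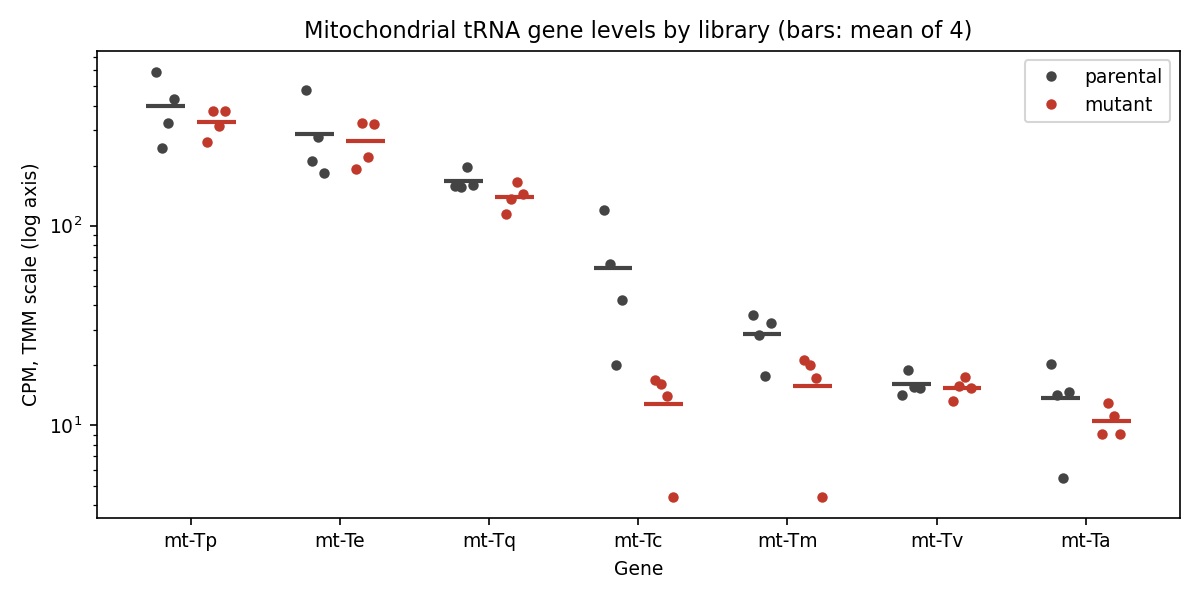
CPM on the TMM scale, on a log axis, of the 7 tRNA genes with a mean of at least 10 CPM. Each point is a library, with 4 per line, and bars are means of a line. The lines are separate for mt-Tc and overlap for the other 6 genes.

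Markers of cardiomyocytes, cells rich in mitochondria, had their highest and lowest levels in the same libraries as mt-Tc, but not the same order in between. The summed level of the 17 markers was 4122, 2289, 1135 and 811 CPM in the parental and 1098, 989, 1233 and 294 CPM in the mutant libraries 1 to 4. Parental libraries 1 and 2 were the highest and mutant library 4 the lowest for the markers and for mt-Tc alike. Among the other 5 libraries, parental library 4 had the lowest marker sum and the highest mt-Tc. Of the 17 markers, 13 had counts in every library, and Nppb was at 0 in all. Of the 14 tested markers 0 were called by edgeR, DESeq2 or limma-voom, while 8, 2 and 6 had an unadjusted p under 0.05 in these tools, where the share over all tested genes in edgeR was 11.9%. The part of these cells in the level of mt-Tc was not tested. Parental libraries 3 and 4, with marker sums of 1135 and 811 CPM, had 20.1 and 42.6 CPM of mt-Tc. Mutant libraries 1 to 3, with marker sums of 989 to 1233 CPM, had 14.0 to 16.8 CPM. These values of a few libraries are descriptive, and no comparison at equal marker sums was tested. In bulk cultures fewer cells of a type and less RNA per cell cannot be told apart. The mitochondrial mRNA share was lowest in parental library 1, at 2.36%, and highest in mutant library 4, at 3.10%. Its relation to the markers was not tested either.

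**Figure D5:**
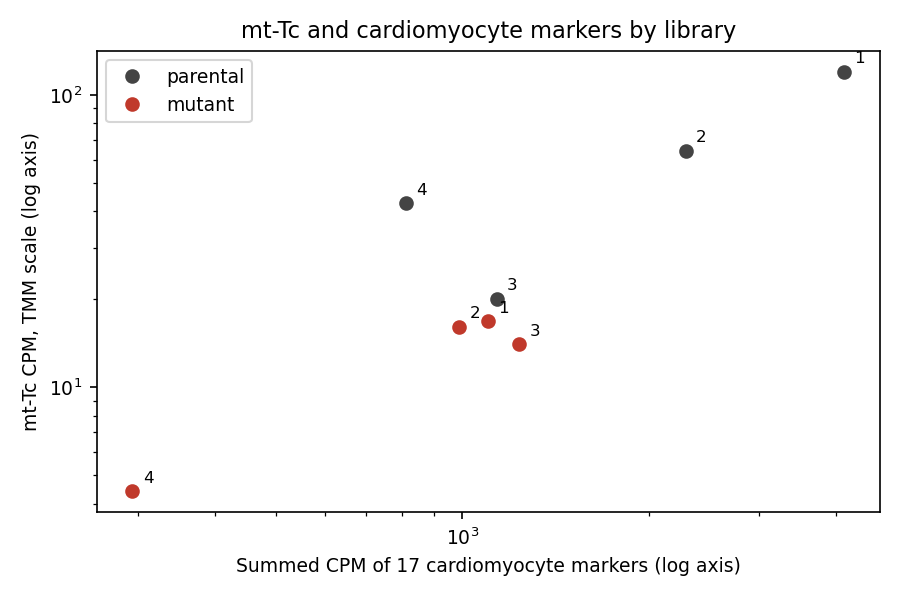
CPM of mt-Tc against the summed CPM of 17 cardiomyocyte markers, both on log axes. Each point is a library, numbered by replicate. Parental libraries 1 and 2 lie at the upper right with 120 and 64.4 CPM of mt-Tc, and mutant library 4 lies at the lower left with 4.40 CPM.

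The other tRNA genes with a mean of at least 10 CPM were mt-Tm, mt-Tv and mt-Ta, for methionine, valine and alanine tRNA. Counts of mt-Tm were 197, 159, 110 and 155 in the parental and 126, 92, 95 and 16 in the mutant libraries 1 to 4, and the mean level was 28.6 ± 7.97 and 15.7 ± 7.72 CPM (SD, n = 4). Its log2 fold change of -0.85 ± 0.35 (SE) had an unadjusted p of 0.0266 and an edgeR adjusted p of 0.331. Levels of mt-Tv were 14.2, 19.0, 15.6 and 15.4 CPM in the parental and 13.3, 15.7, 17.4 and 15.4 CPM in the mutant libraries. This gene, which lies between the rRNA genes, had the smallest spread of the tRNA genes in parental libraries after mt-Tq, at 12.9% of the mean. Levels of mt-Ta were 20.4, 14.2, 5.43 and 14.7 CPM in the parental and 9.07, 12.9, 11.1 and 9.07 CPM in the mutant libraries. The lines overlapped for each of these 3 genes. The log2 fold change of mt-Tv was -0.06 ± 0.26, and it was 0.03 without parental library 2 and 0.01 without mutant library 1.

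The 5 remaining tested tRNA genes, mt-Tf, mt-Tl1, mt-Ti, mt-Tn and mt-Tl2, had means of 2.55 to 7.44 CPM and log2 fold changes of -0.71 to -0.23. Without parental library 1 that of mt-Tl2 was 0.13. In mutant library 4 mt-Tf had 3 counts, which is the floor of 3 counts used here for detection. Both mt-Ts2 and mt-Tt had too few counts to be tested, with 68 and 58 in all. The counts of mt-Tt, for threonine tRNA, were 16, 11, 18 and 5 in the parental and 5, 3, 0 and 0 in the mutant libraries 1 to 4. All 12 tested tRNA genes had log2 fold changes below 0, where the share over all tested genes was 49.8%, but 11 of the 12 did not pass the test. Without parental library 1, 2 of 12 were above 0, and the median was -0.21 in place of -0.33. Without parental library 2, 1 of 12 was above 0, and without mutant library 1, 2 of 14. The genes share precursors and the same 8 libraries and are not independent.

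Nuclear genes for mitochondrial RNA synthesis and handling, translation, mass and import, and respiratory subunits were examined beside these genes, in 9 lists with 272 tested genes. In edgeR 1 of the 272 was called, Cox7b, and 23 (8.46%) had an unadjusted p under 0.05, against 11.9% of all tested genes. DESeq2 called 5 of the 272 and limma-voom 2, beside 405 and 252 of all 13280 tested genes. None of the 18 tested genes for transcription and replication of mitochondrial DNA was called by edgeR, and 0 had an unadjusted p under 0.05. The median log2 fold change of this list was 0.03. Tfam, which packages the DNA and starts transcription, had 71.8, 76.4, 81.4 and 93.8 CPM in the parental and 66.2, 73.0, 81.2 and 104 CPM in the mutant libraries 1 to 4. The levels of the lines overlapped, with a log2 fold change of 0.00 ± 0.16 (SE). Polrmt, the mitochondrial RNA polymerase, had a log2 fold change of 0.09 ± 0.26.

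Genes for RNA processing, stability and decay had a median log2 fold change of -0.11 over 20 tested genes, of which 0 were called by edgeR and 2 had an unadjusted p under 0.05. Lrpprc, which binds and stabilises mitochondrial mRNAs, had 77.5 ± 12.3 CPM in the parental and 79.9 ± 18.0 CPM in the mutant libraries (SD, n = 4). The list for tRNA maturation and charging had 36 tested genes, 0 called by edgeR, 2 with an unadjusted p under 0.05 and a median of -0.01. The mitochondrial ribosome and translation list had 88, 0, 5 and -0.03 for the same quantities. The list for mitochondrial mass and import had 33 tested genes, 0 called by edgeR, 1 with an unadjusted p under 0.05 and a median of 0.02. Vdac1, a channel of the outer membrane, had 318 ± 41.2 CPM in the parental and 316 ± 37.1 CPM in the mutant libraries.

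Nuclear subunits of complexes I, III, IV and V had median log2 fold changes of -0.03, 0.05, -0.03 and 0.03, over 36, 9, 15 and 17 tested genes. Cox7b, a small subunit of cytochrome c oxidase, had 187, 192, 209 and 171 CPM in the parental and 142, 138, 133 and 139 CPM in the mutant libraries 1 to 4. The lines did not overlap, and Cox7b fell with a log2 fold change of -0.46 ± 0.11 (SE; edgeR adjusted p = 0.0430). This call was lost with the replicate number as a block (adjusted p = 0.0642), with scaling by library size alone (0.0833) and whenever 1 library other than parental library 4 was left out (0.0565 to 0.168). Glycolysis and hypoxia genes stood beside these lists with 7 of 20 tested genes called lower by edgeR (0.670% of all tested genes), 0 called higher (0.745%) and a median log2 fold change of -0.69. Among them Ldha, which makes lactate from pyruvate, fell from 659 ± 87.8 to 309 ± 100 CPM (SD, n = 4; edgeR adjusted p = 0.00140). Aldoa, an aldolase, fell from 620 ± 47.4 to 383 ± 62.3 CPM (edgeR adjusted p = 0.00272). Slc16a3, a lactate exporter, fell from 132 ± 19.3 to 52.8 ± 24.3 CPM (edgeR adjusted p = 0.00449). Pfkl, a phosphofructokinase, fell from 166 ± 6.08 to 81.8 ± 31.1 CPM (edgeR adjusted p = 0.00552).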

How the data were processed

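RNA of 8 cultures on day 6 was measured by QuantSeq. The authors deposited raw counts, whole numbers for each gene in each library. STAR, featureCounts and mm10 are named, without versions, per the submitters' processing notes. Counting on the forward strand is stated by the name of the deposited table. The annotation, the treatment of multiply mapping reads and any removal of duplicates are not given in the sources used here. Of 55487 identifiers, 55227 matched GENCODE M21 (GRCm38) without their version number.

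Groups came from the sample titles. Genes were filtered with filterByExpr (13280 kept, with 99.5% of counts), scaled by TMM and tested with edgeR 4.0.16 (glmQLFit, glmQLFTest, intercept and line) in R 4.3.3. P-values were two-sided and Benjamini-Hochberg adjusted over all genes tested. The SE given with edgeR log2 fold changes was derived from the test, as the absolute log2 fold change divided by the square root of its F statistic. The test was checked on simulated data. Nuclear matches were sought with blastn 2.17.0+ (megablast, at least 95% identity, at least 100 bases). Alternatives included DESeq2 1.42.0, limma-voom (limma 3.58.1), other scalings and filters, a replicate block and leaving out each library. Values over all 37 genes or a class have no p.

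The mitochondrial genes and all lists were chosen with earlier results of these data known. Values per library are given for protein-coding and rRNA genes that passed the filter and for tRNA genes with a mean of at least 10 CPM or a call. Named nuclear genes are those called, at most 4 a list in order of p, with Tfam, Polrmt, Lrpprc and Vdac1 in any case. Nuclear copies with a mean of at least 10 counts were named by rule, and others after their values were seen.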

Additional observations from a re-analysis of the deposited data

Results flagged for a closer look

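A library was singled out when its gap to the nearest of the 4 libraries of its line, divided by the range of the line, exceeded Dixon's 95% critical value. This was applied to 52 sets of 4 values and singled out 9, where chance gives about 1 in 20 for independent sets of normal values. The sets share the same libraries, and the rRNA share is made up of mt-Rnr1 and mt-Rnr2. The number singled out is therefore not a test. Parental library 4 was high in 4 of these: mt-Rnr1 (15850 CPM, others 10774 to 11144), mt-Rnr2 (43026 CPM, others 30590 to 32127), the rRNA share of counts (5.63%, others 4.11% to 4.30%) and mt-Nd5 (1076 CPM, others 814 to 841). Parental library 3 was high for mt-Tq (198 CPM, others 157 to 160) and mt-Nd4 (7701 CPM, others 6921 to 6992). Parental library 1 was high for the tRNA share of counts, at 0.147% against 0.0776% to 0.0885%. Mutant library 4 was high for mt-Nd1 (7675 CPM, others 5101 to 5508) and low for mt-Tl2 (2.20 CPM, others 5.67 to 5.88). For mt-Tl2 that level rests on 8 counts.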

How the results depend on the processing

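The number of mitochondrial genes called was 1 under all alternatives, leaving out each library included (1 to 1), except limma-voom and robust empirical Bayes, which called 0. The count over all tested genes was 188, and 439 without the low-count filter, 405 with DESeq2, 252 with limma-voom and 103 to 235 when single libraries were left out. With library size alone as the scale, 157 were called, 63.7% of them higher, against 52.7% with TMM. Over the 9 nuclear lists the count of 1 became 0 with library size alone, 0 with the replicate block, 3 without the filter, 5 with DESeq2, 2 with limma-voom, and 0 to 3 when single libraries were left out. The causes were not tested. With the replicate block the log2 difference of mt-Tc was -2.11 (adjusted p = 0.00185), and 234 genes were called in all. Same-numbered libraries of the lines had correlations of 0.102, 0.015, -0.033 and 0.028 in their deviations from the group means, so the numbers were not taken as pairs. Not every library correlated best with its own number. The differences in class shares moved by less than their spread between libraries. With each library left out they were 0.221 to 0.391 percentage points for mRNA, -0.345 to 0.298 for rRNA and -0.0256 to -0.00259 for tRNA. For mRNA the difference was 0.414 without the most counted nuclear rRNA gene in the denominator and 0.452 over protein-coding genes. A count of 0 in the smallest library allows a share of up to 7.89e-05% of its counts, if reads of the gene could be assigned to it. For genes with identical nuclear copies this limit says nothing of the RNA in the cells.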
